A study of Mus musculus with 10 samples.

Results

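The genes described here are those whose messenger RNA was at least halved, without overlap between animals, in heart muscle cells of Actn2 knockout mice. Counts of each sample were divided by its total count and scaled to a total of 1000000, which gives CPM. A gene was a member when the heterozygote mean was at least 3 CPM, the knockout mean was at most 0.5 of it, and each of the 5 knockout samples lay below each of the 5 heterozygote samples. Of the 23337 genes in the count table, 10486 reached the minimum level, 138 of these also met the ratio, and 66 of those also had groups that did not overlap, which is 0.629% of the genes at that level. The rule leaves out 7 of these 66 genes by name (Actn2 itself, Acta2, Rtn4r, Kcnd2, Rxrg, Fbp2 and Adhfe1), and 59 members remained. These 7 are also left out of every count over a gene list below. The members were thus chosen by their knockout and heterozygote levels in these same 10 samples. Their difference between the genotypes is given below as a description, without a test, and no p is attached to any member.

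Polyadenylated RNA was measured in cardiomyocytes of 10 mice on postnatal day 14. Knockouts had both Actn2 alleles floxed (Actn2F/F), that is, flanked by sites at which Cre recombinase cuts, and heterozygotes had 1 floxed allele and 1 intact allele (Actn2F/+). All 10 animals, heterozygotes included, had received AAV9-cTNT-Cre on postnatal day 1, an adeno-associated virus that expresses Cre from the cardiac troponin T promoter, so the comparison holds no animal without Cre and none with both alleles intact. The cells were freed by perfusing the heart with collagenase and purified by fluorescence-activated cell sorting, and the labels give neither strain nor sex.

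Alpha-actinin-2, the product of Actn2, crosslinks the actin filaments of neighbouring sarcomeres at the Z-line, where titin is anchored as well. In the weeks after birth, cardiomyocytes leave the cell cycle, turn from carbohydrate to fatty acids as their main fuel, and acquire adult ion currents and membrane transport. Several of the genes below, such as Rpl3l, Art1 and Kcnip2, belong to what mature striated muscle expresses.

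Total counts ran from 8086656 to 25237696 per sample. Counts of Actn2 were 1174 to 1288 CPM in the knockouts and 2639 to 3353 CPM in the heterozygotes, which checks the genotype labels. Actn2 RNA was thus reduced in the knockouts and not absent, and the source of the remaining RNA was not tested. The 10 cardiomyocyte markers, Myh6 and Tnnt2 among them, summed to 108099 to 127152 CPM in heterozygotes and 112676 to 131031 CPM in knockouts. Markers of other cells were present at far lower sums: 758 to 1431 and 526 to 946 CPM for 12 endothelial genes, 873 to 1059 and 765 to 926 CPM for 12 smooth muscle and pericyte genes, 396 to 622 and 418 to 766 CPM for 10 fibroblast genes, and 13.1 to 39.9 and 9.63 to 12.5 CPM for 9 macrophage and leukocyte genes, heterozygotes first. Of these, 2 endothelial genes (Egfl7 and Cldn5), 3 smooth muscle genes (Tagln, Myl9 and Smtn) and the macrophage gene Csf1r were called lower in edgeR's quasi-likelihood test, and the pericyte gene Cspg4 was called higher, beside 8.64% and 10.2% of all genes tested. Cldn5 lost its call without heterozygote 3 or 4 or knockout 1, 2, 3 or 5 and with library totals alone, and Csf1r without heterozygote 3 or knockout 3. The globin genes Hba-a1, Hba-a2, Hbb-b1 and Hbb-b2 were at 0 counts in every sample. In bulk samples, fewer cells of a type and less RNA per cell cannot be told apart, and the part of these other cells in the members' levels was not tested.

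The 59 members were spread over many functions, with 17 metabolic enzymes, 12 receptors, ligands and signalling proteins, 9 proteins of muscle, cytoskeleton or cilium, 5 channel or connexin genes, 4 genes of transcription, splicing or the ribosome, 3 transporters and 9 genes whose role is not described here. Per kilobase of exon, the heterozygote level was highest for Dgat2, of the last step of triglyceride synthesis, at 258 CPM, Alas1, of the first step of heme synthesis, at 215, the muscle enzyme gene Art1 at 108 and the potassium channel subunit gene Kcnip2 at 87.7, whose gene model in the table is only 813 bases long. Among members with a heterozygote mean of at least 10 CPM, the lowest remaining levels were those of the kinase gene Wnk2 at 0.305 of the heterozygote mean, the amino acid transporter gene Slc36a2 at 0.336 and the ADP-ribosyltransferase gene Art1 at 0.340. Of the 35 tested genes of fatty acid uptake and oxidation, none was a member. Nor was any of the 32 of glucose and glycogen metabolism, but Fbp2 of that list met the limits and is left out by name. The limits were met by 0.629% of the genes at 3 CPM or more, genes left out by name included. Having none is thus usual for a list the size of the first.

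Many members sat close under the limit of the rule and at low CPM. The ratio of knockout to heterozygote mean had a median of 0.431 and ran from 0.142 for Rp1, a microtubule-associated gene of photoreceptor axonemes, to 0.499 for Cited1, a transcriptional coregulator. It was at most 0.4 in 21 members and above 0.45 in 24. The heterozygote mean of the members had a median of 13.1 CPM and a range of 3.01 to 581 CPM, while all 10486 genes at the minimum level had a median of 27.5 CPM. Members made up 1.20% of genes between 3 and 10 CPM, 0.523% between 10 and 30 CPM, 0.327% between 30 and 100 CPM and 0.247% from 100 CPM up. Every knockout lay below every heterozygote in 575 genes, 5.48% of the 10486, so that the ratio was the stricter condition of the rule. In 18 members the lowest heterozygote was at least 1.5 times the highest knockout, and in 6 it was less than 1.1 times as high.

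**Figure D1:**
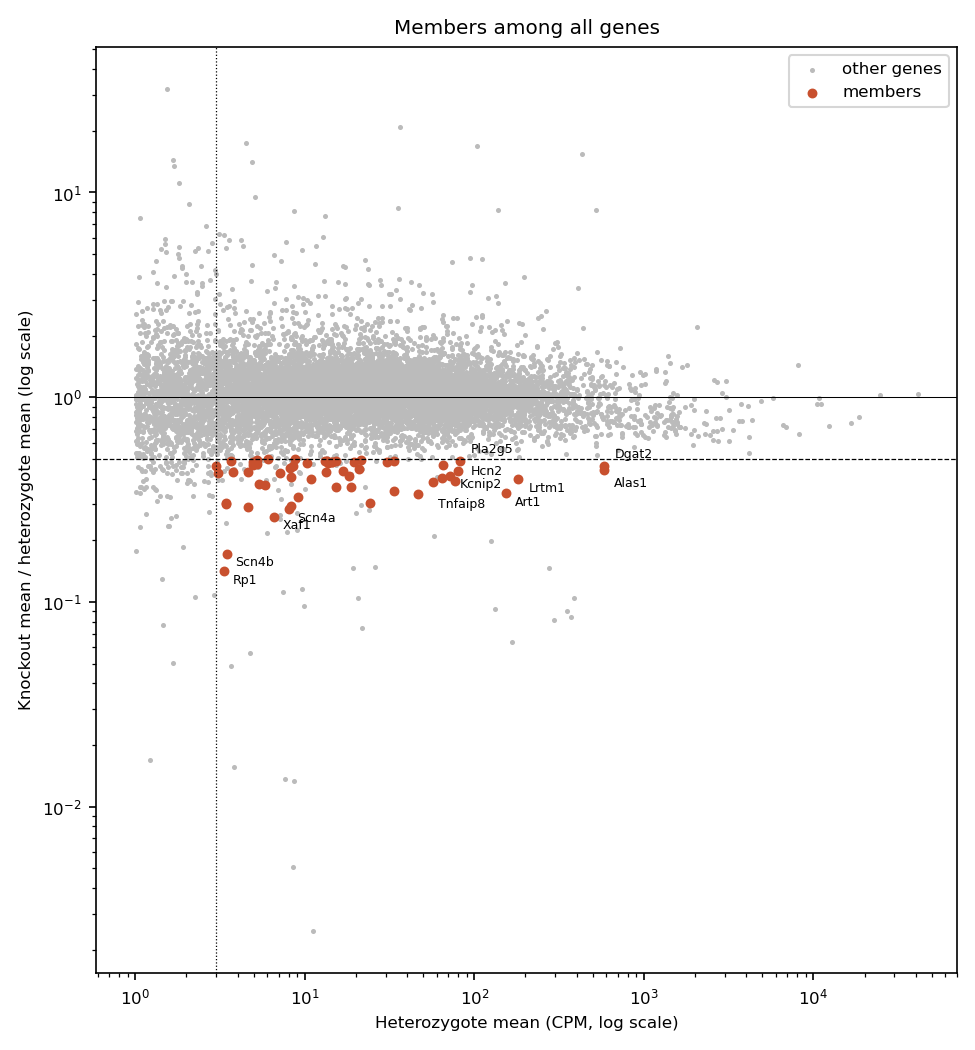
Mean level in the heterozygotes (x axis, CPM, log scale) and ratio of knockout to heterozygote mean (y axis, log scale) of genes with a heterozygote mean of at least 1 CPM, apart from the 7 genes that the rule leaves out. Orange points are the 59 members, grey points other genes, the dashed line marks a ratio of 0.5 and the dotted line 3 CPM. The members lie below the dashed line, from 0.142 for Rp1 to 0.499 for Cited1, and 27 of them lie between 3 and 10 CPM. Grey points below the dashed line had overlapping groups or lie left of the dotted line.

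The limits of the rule cut through a continuous range. Just inside the ratio lay Cited1 at 0.499, the lysosomal amidase gene Naaa at 0.498 and the peptidase gene Ctsc at 0.494, and just outside lay the glutamine transporter gene Slc38a3 at 0.501, the kinase gene Wnk4 at 0.502 and Rgs7, a regulator of G protein signalling, at 0.504. At the level limit, AI507597, the prolactin receptor gene Prlr and Rp1 were inside with heterozygote means of 3.01, 3.09 and 3.34 CPM. The calcium channel gene Cacna1s and Gm6416 met the other conditions and were outside with 2.80 and 2.73 CPM.

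Relative to the heterozygote mean of each gene, the median over the members was between 0.838 (heterozygote 4) and 1.0996 (heterozygote 2) in heterozygotes and between 0.378 (knockout 3) and 0.438 (knockouts 2 and 5) in knockouts. Heterozygote 2 was the highest of its group in 24 members and heterozygote 4 the lowest in 23, while knockout 3 was the lowest of its group in 20 and knockout 5 the highest in 20. The coefficient of variation had a median of 23.4% among heterozygotes and 22.4% among knockouts. When single animals were left out, 33 members met the rule in all 10 cases and 26 were lost in at least 1, most of them without heterozygote 2, when 42 of the 59 remained. Scaled with TMM factors in place of totals alone, the rule gave 84 genes, all 59 members among them. That scaling lowered the ratio of knockout to heterozygote mean for most genes, so keeping the members was nearly set in advance.

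**Figure D2:**
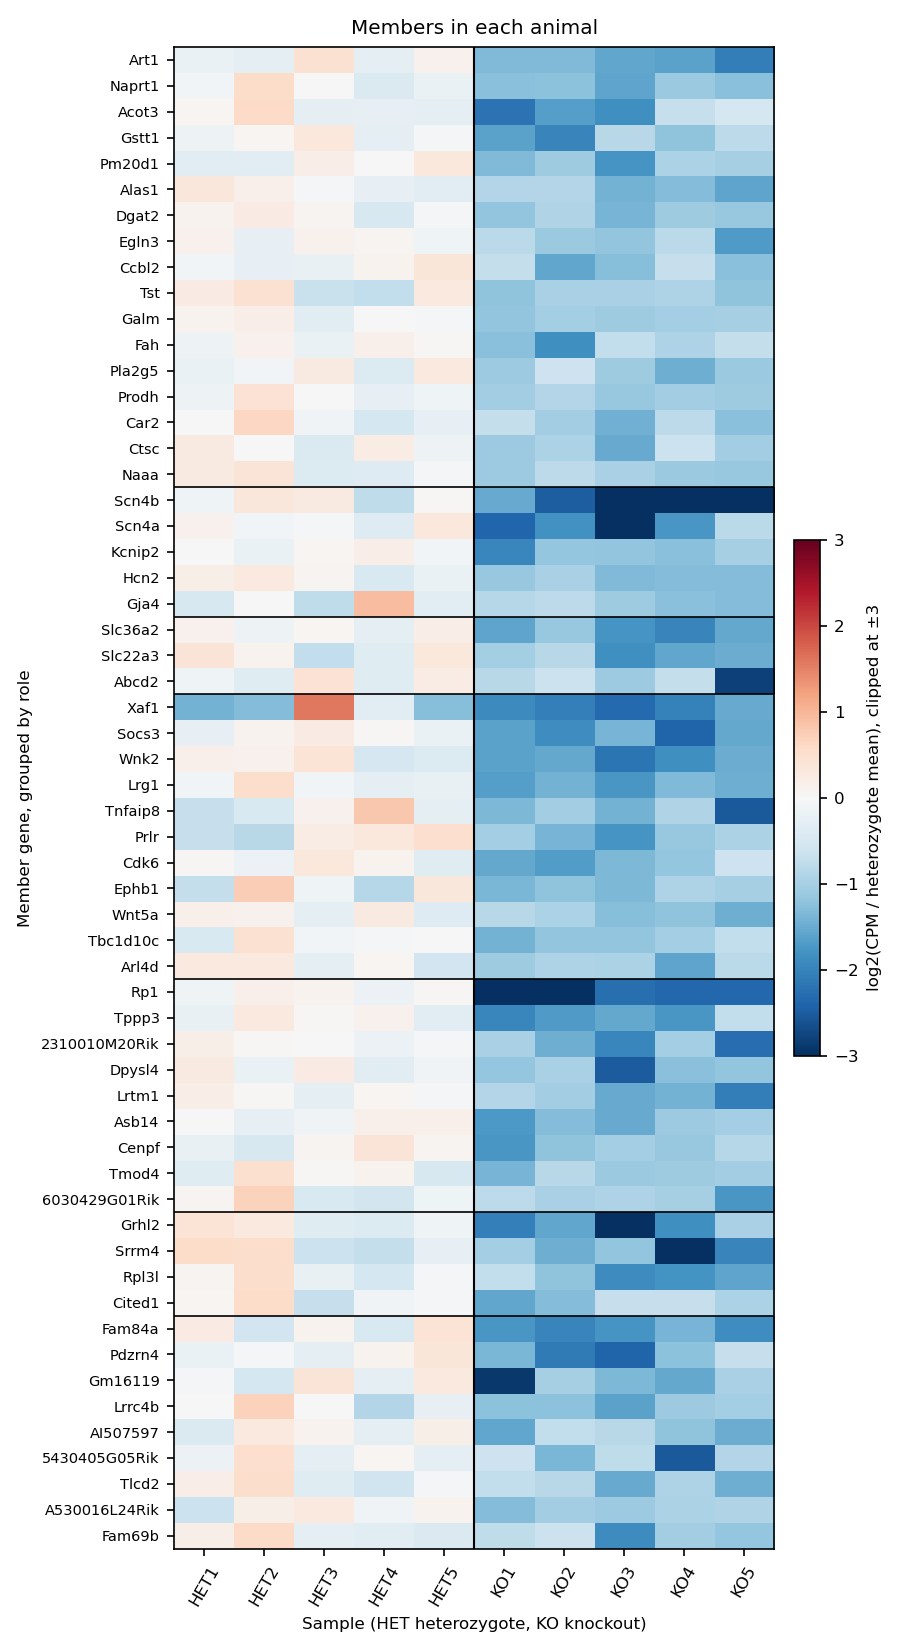
Level of 58 of the 59 members (rows) in each animal (columns) as log2 of CPM over the heterozygote mean of that gene, with colours clipped at -3 and 3. Horizontal lines part the roles, from top to bottom metabolic enzymes, channels and connexin, transporters, signalling, muscle with cytoskeleton and cilium, transcription with splicing and ribosome, and genes without a described role. The vertical line parts heterozygotes from knockouts. Knockout columns are blue throughout, and the strongest red cell is that of Xaf1 in heterozygote 3.

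The promoters of the members were poorer in CpG than those of all expressed genes, members included. CpG is the dinucleotide that clusters at the start sites of widely expressed genes, while promoters of genes with tissue-restricted expression often hold few. RefSeq promoters (assembly GRCm38.p6, the sequence of mm10), from 250 bases before to 50 after the start, were at hand for 42 members, 7 of them found under an older symbol, and for 8414 of the genes at 3 CPM or more. Fewer than 10 CpG stood in 19 of the 42 member promoters (45.2%) and in 12.7% of the expressed promoters. Some RefSeq starts lie away from the start in the annotation of the counts. The distance was 853 bases for Gstt1 and 314 for Wnk2, with 8 and 5 CpG, and 418 for Scn4b and 419 for Cdk6, with 26 and 27. Among expressed genes that share was 19.4% between 3 and 10 CPM, 11.3% between 10 and 30 CPM, 9.56% between 30 and 100 CPM and 13.1% from 100 CPM up, so no level class reached the members' share. The median number of CpG was 12 in members and 22 in expressed genes, and the median GC content 56.0% and 61.7%. These shares are descriptions over genes, with no test.

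**Figure D3:**
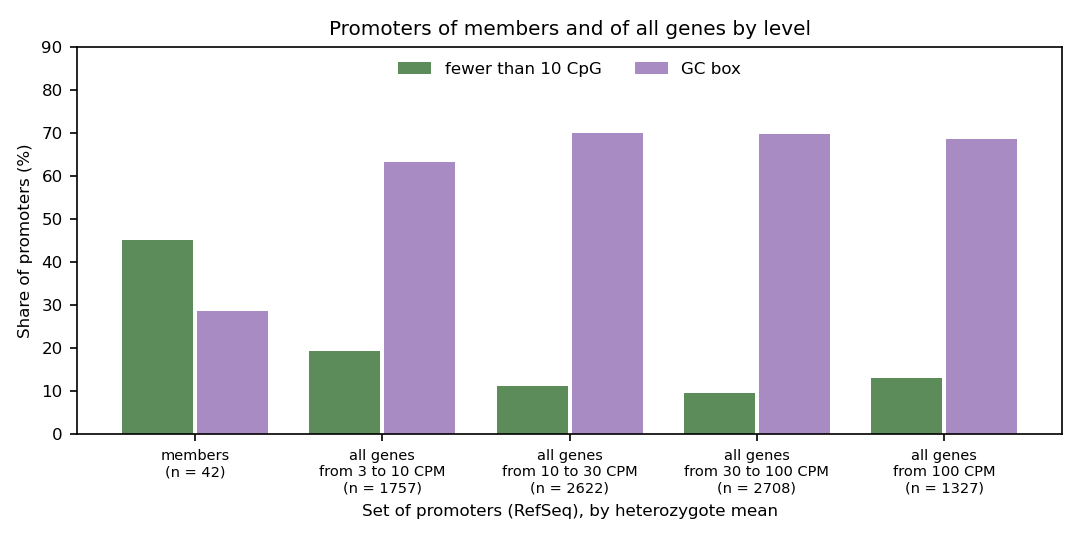
Share of promoters (y axis, percent) with fewer than 10 CpG (green) and with a GC box, GGGCGG on either strand (purple), for the 42 members with a RefSeq promoter and for all expressed genes in 4 classes of heterozygote mean (x axis). Bars start at 0 and have no error, since each is a share of 1 set of sequences. Members have the highest green bar, 45.2%, and the lowest purple bar, 28.6%.

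The 150 bases before the RefSeq start are shown for 6 of the members given in full, 3 with few and 3 with many CpG, so that the contrast can be seen, with each CpG in capitals, 5′ to 3′ on the strand of the gene. Art1 (chr7:102101593-102101742, plus strand), Lrtm1 (chr14:29018058-29018207, plus strand) and Rpl3l (chr17:24727676-24727825, plus strand) held 2, 4 and 1 CpG in this window. Alas1 (chr9:106247955-106248104, minus strand), Hcn2 (chr10:79716484-79716633, plus strand) and Kcnip2 (chr19:45816064-45816213, minus strand) held 10, 13 and 11. The RefSeq start used for Kcnip2 lies 260 bases from the start in the annotation of the counts, that of Rpl3l 3 bases, and those of the other 4 coincide with it.
Art1: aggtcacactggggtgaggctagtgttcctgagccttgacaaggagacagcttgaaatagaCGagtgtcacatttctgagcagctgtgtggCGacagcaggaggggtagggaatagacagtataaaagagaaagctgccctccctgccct
Lrtm1: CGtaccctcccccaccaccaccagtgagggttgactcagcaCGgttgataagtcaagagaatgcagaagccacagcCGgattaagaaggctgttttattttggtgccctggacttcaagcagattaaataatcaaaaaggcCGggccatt
Rpl3l: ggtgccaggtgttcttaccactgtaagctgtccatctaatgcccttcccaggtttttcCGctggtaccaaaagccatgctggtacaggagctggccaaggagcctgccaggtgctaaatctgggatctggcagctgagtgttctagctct
Alas1: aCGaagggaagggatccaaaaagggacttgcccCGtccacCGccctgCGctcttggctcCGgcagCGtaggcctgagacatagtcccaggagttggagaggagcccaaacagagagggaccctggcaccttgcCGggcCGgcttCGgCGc
Hcn2: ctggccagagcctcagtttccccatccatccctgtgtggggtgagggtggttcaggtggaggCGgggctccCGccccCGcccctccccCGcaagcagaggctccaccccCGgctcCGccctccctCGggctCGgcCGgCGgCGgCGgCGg
Kcnip2: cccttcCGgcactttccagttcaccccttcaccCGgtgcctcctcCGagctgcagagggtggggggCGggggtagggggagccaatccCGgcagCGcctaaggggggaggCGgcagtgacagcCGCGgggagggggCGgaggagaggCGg
The first 3 sequences have scattered single CpG. The other 3 have runs of them, and the Hcn2 window ends in a repeated CpG stretch.

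Motifs were searched by exact letters on both strands in the same 300 bases. The GC box GGGCGG stood in 28.6% of the 42 member promoters, in 68.3% of expressed promoters and in 35.7% of all promoters in the table, and on the strand of the gene alone in 16.7% of member promoters. The CArG box, the site of serum response factor, was matched in 0 of 42 and in 1.37% of expressed promoters. The MEF2 letters CTAAAAATA were matched in 0 of 42 and in 0.285%. The nuclear receptor half-site AGGTCA stood in 9 member promoters (21.4%, against 11.3% of expressed and 16.3% of all), those of Xaf1, Art1, 2310010M20Rik, Rpl3l, Asb14, Acot3, Hcn2, AI507597 and 5430405G05Rik. The longer site of estrogen-related receptors, TCAAGGTCA, which contains AGGTCA, stood in Hcn2 only (2.38%, against 0.214% of expressed promoters). The TATA box TATAAA stood in 11.9%, against 6.80% of expressed and 13.6% of all promoters. In the same order, the GATA letters AGATAA stood in 11.9%, against 5.60% and 11.2%. The TEAD letters GGAATG stood in 16.7%, against 11.8% and 14.7%, and the E-box CAGCTG in 11.9%, against 14.5% and 16.3%. With 42 promoters, 1 gene is 2.38%, and a match or its lack in these 300 bases says nothing about binding.

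Matches are shown in capitals for 3 members with a half-site. Art1 (chr7:102101588-102101722, plus strand) has AGGTCA at -150 to -145 and TATAAA at -30 to -25. Asb14 (chr14:26894499-26894598, plus strand) has AGGTCA at -109 to -104 and the TATA letters on the opposite strand at -42 to -37 and -27 to -22. Hcn2 (chr10:79716454-79716493, plus strand) has the longer site, also on the opposite strand, at -168 to -160.
Art1: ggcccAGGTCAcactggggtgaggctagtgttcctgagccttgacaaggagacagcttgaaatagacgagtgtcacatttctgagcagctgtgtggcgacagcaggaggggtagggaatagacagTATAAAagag
Asb14: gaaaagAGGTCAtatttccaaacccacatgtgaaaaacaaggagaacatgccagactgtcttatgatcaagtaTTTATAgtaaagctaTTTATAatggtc
Hcn2: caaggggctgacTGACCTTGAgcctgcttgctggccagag
Beside these sequences, Art1 and Asb14 kept 0.340 and 0.405 of their heterozygote level in the knockout and Hcn2 kept 0.435.

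Of the ion channel members, Kcnip2 (chr19:45793670-45815803, minus strand) encodes KChIP2, the subunit that brings Kv4 potassium channels to the membrane for the transient outward current. It stood at 70.6, 62.3, 74.1, 82.5 and 67.0 CPM in the 5 heterozygotes (1 to 5) and 18.3, 31.7, 31.6, 30.005 and 35.9 CPM in the 5 knockouts. Heterozygote 4 was the highest and knockout 1 the lowest, and a wide gap parted the groups. The means were 71.3 ± 7.62 and 29.5 ± 6.61 CPM (SD, n = 5 each, as for all means here), a ratio of 0.414. Hcn2 (chr10:79716634-79736108, plus strand) encodes a hyperpolarization-activated channel of the pacemaker current that is also present in working myocardium. Its levels were 90.8, 97.9, 84.7, 58.4 and 69.5 CPM in the 5 heterozygotes (1 to 5) and 36.3, 41.1, 32.1, 32.6 and 32.4 CPM in the 5 knockouts. Heterozygotes 4 and 5 lay nearest to the knockouts, which differed little from one another. The means were 80.3 ± 16.1 and 34.9 ± 3.84 CPM, a ratio of 0.435.

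Both voltage-gated sodium channel members were of low abundance. Scn4a (chr11:106318593-106349390, minus strand) encodes the sodium channel of skeletal muscle, and Scn4b (chr9:45139042-45154061, plus strand) the beta-4 subunit that modifies the opening of such channels. Scn4a stood at 8.80, 7.52, 7.67, 6.13 and 9.89 CPM in the 5 heterozygotes (1 to 5) and 1.54, 2.28, 0.600, 2.37 and 4.56 CPM in the 5 knockouts. Knockout 5 came closest to the heterozygotes and knockout 3 was lowest, and the ratio of the means was 0.284. Scn4b stood at 3.17, 4.40, 4.20, 2.04 and 3.59 CPM in the 5 heterozygotes (1 to 5) and 1.23, 0.630, 0.4003, 0.324 and 0.414 CPM in the 5 knockouts. Heterozygote 4 was the lowest of its group and knockout 1 the highest of the other, without overlap, and the ratio was 0.172. Its knockout values rest on 3 to 12 counts per sample. Gja4, which encodes connexin 37, a gap junction protein of endothelium, had means of 13.1 ± 6.90 and 6.41 ± 1.03 CPM. Heterozygote 4 at 24.96 CPM was well above the other heterozygotes for Gja4, and the lowest heterozygote exceeded the highest knockout by 1.02 times only.

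Of 8 other tested sodium and HCN channel genes, on a list drawn up after the members were known, 1 was called lower and 0 higher in edgeR's quasi-likelihood test, which called 8.64% of the 11870 tested genes lower and 10.2% higher. That gene was Scn10a (log2 fold change -1.44, SE 0.481, adjusted p 0.0498), whose call was lost in DESeq2, with library totals alone and without any single animal other than heterozygote 4 and knockout 5. The pacemaker paralog Hcn4 was not called (log2 fold change 0.11, SE 0.301, adjusted p 0.842, edgeR), and its sign turned when heterozygote 4 or knockout 4 was left out. Of 19 other tested potassium channel genes, without the Kv4 gene Kcnd2 that the rule leaves out by name, 2 were lower (Kcnk3, a background potassium channel, at -0.55, and the calcium-activated channel gene Kcnn1 at -0.70 on the log2 scale) and 1 was higher, the transient outward channel gene Kcna4 at 0.61. The median log2 fold change over those 19 genes was -0.37, beside 0.00 over all genes tested. The lower count was 5 in DESeq2, 4 without knockout 4 and 1 without heterozygote 1, heterozygote 5 or knockout 5, with library totals alone and without the filter on low counts. Kcnn1 lost its call with library totals alone, without that filter, and without heterozygote 1, 2, 4 or 5 or knockout 1, 3 or 5.

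The 3 transporters differed in what they carry. Slc36a2 (chr11:55158468-55185077, minus strand) encodes a proton-coupled transporter of small amino acids such as glycine and proline. It stood at 50.8, 41.6, 47.9, 37.8 and 52.9 CPM in the 5 heterozygotes (1 to 5) and 15.4, 21.1, 13.6, 11.7 and 15.8 CPM in the 5 knockouts. Knockout 2 was the highest of its group and still far below heterozygote 4, the lowest of the other. The means were 46.2 ± 6.34 and 15.5 ± 3.52 CPM, a ratio of 0.336. Slc22a3, an organic cation transporter that clears catecholamines, had means of 8.30 ± 2.52 and 3.36 ± 0.971 CPM, with heterozygote 3 only 1.07 times the highest knockout. Abcd2, a peroxisomal transporter of very long-chain fatty acids, had means of 14.3 ± 3.64 and 6.95 ± 2.88 CPM. Of 26 other amino acid transporter genes tested, 2 were lower and 6 higher, beside 8.64% and 10.2% of all genes, with a median log2 fold change of 0.08. Those higher in edgeR's quasi-likelihood test included the taurine transporter gene Slc6a6 (log2 fold change 1.44, SE 0.152, adjusted p 1.97e-05), the neutral amino acid exchanger gene Slc1a4 (1.39) and Slc7a5, of the large neutral amino acid exchanger (0.87). Slc38a3, just outside the rule, was lower (log2 fold change -1.07, SE 0.190, adjusted p 0.00141, edgeR).

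Metabolic enzymes formed the largest set, with ratios of 0.340 to 0.498 and heterozygote means of 3.68 to 581 CPM. Dgat2 (chr7:99153663-99182713, minus strand) encodes the acyltransferase that makes triglyceride from diglyceride. It stood at 622, 689, 613, 416 and 566 CPM in the 5 heterozygotes (1 to 5) and 257, 311, 222, 279.6 and 265 CPM in the 5 knockouts. Heterozygote 4 was the lowest of its group, and the knockouts lay close together below it. The means were 581 ± 102 and 267 ± 32.4 CPM, a ratio of 0.459. Dgat1, which catalyses the same reaction, was also lower, with means of 46.3 ± 5.36 and 37.3 ± 4.65 CPM (log2 fold change -0.40, SE 0.110, adjusted p 0.0212, edgeR's quasi-likelihood test), and lost its call without knockout 2, without knockout 3 and with library totals alone.

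A list of triglyceride synthesis and lipid droplets, made after the members were known, held 24 tested genes other than Dgat2. Of these, 10 were lower, Dgat1 among them, and 0 higher in edgeR's quasi-likelihood test, beside 8.64% and 10.2% of all genes. The median log2 fold change of the 24 was -0.31. The largest difference was that of Plin5, which coats lipid droplets beside mitochondria, with means of 349 ± 79.7 and 184 ± 15.7 CPM (log2 fold change -1.01, SE 0.149, adjusted p 0.000319). Agpat2, an acyltransferase that makes phosphatidic acid, was at -0.86, the lipase inhibitor gene G0s2 at -0.86 and the monoglyceride lipase gene Mgll at -0.69 on the log2 scale. The list of fatty acid uptake and oxidation shares the lower genes Plin5 and Pnpla2 with the lipid droplet list. Of its 35 tested genes, 25 were lower and 0 higher, with a median of -0.62. None was a member, beside 0.629% of the genes at 3 CPM or more that met the rule. In that list Ces1d, a lipase, was furthest down at -1.96, with overlapping groups. Of 32 genes of glucose and glycogen metabolism, without Fbp2, 11 were lower and 0 higher, with a median of -0.25.

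Alas1 (chr9:106233455-106247954, minus strand) encodes the rate-limiting synthase of heme in cells other than red cell precursors. Its levels were 729, 649, 561, 491 and 469 CPM in the 5 heterozygotes (1 to 5) and 314, 316, 216, 236 and 195 CPM in the 5 knockouts. Heterozygotes 1 and 2 were highest and knockouts 1 and 2 were the highest of theirs, without overlap. The means were 579.9 ± 109 and 255 ± 56.3 CPM, a ratio of 0.440. Further along the pathway, 14 other genes of heme synthesis and breakdown were tested, again on a list made afterwards. Of these, 8 were lower and 0 higher, beside 8.64% and 10.2% of all genes, with a median log2 fold change of -0.34. Alad, the enzyme that acts on the product of Alas1, had means of 65.9 ± 10.3 and 42.9 ± 3.80 CPM (log2 fold change -0.71, SE 0.119, adjusted p 0.000956, edgeR's quasi-likelihood test). Both biliverdin reductase genes, Blvrb at -0.61 and Blvra at -0.53, were lower on the log2 scale. The 6 red blood cell markers in the table summed to at most 1.16 CPM in a heterozygote and 0.614 CPM in a knockout.

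Art1 (chr7:102101743-102111148, plus strand) encodes an enzyme on the outer face of the muscle cell membrane that transfers ADP-ribose from NAD to arginine residues. It stood at 135, 127, 210.1, 129 and 169 CPM in the 5 heterozygotes (1 to 5) and 61.2, 61.1, 51.8, 50.7 and 36.6 CPM in the 5 knockouts. Heterozygote 3 was high and knockout 5 low, and the lowest heterozygote was 2.07 times the highest knockout. The means were 154 ± 35.9 and 52.3 ± 10.1 CPM, a ratio of 0.340. Naprt1 (chr15:75890964-75894481, minus strand) makes the NAD precursor nicotinate mononucleotide from nicotinic acid. It stood at 17.1, 26.4, 18.2, 13.4 and 15.7 CPM in the 5 heterozygotes (1 to 5) and 7.58, 7.79, 6.10, 8.42 and 7.58 CPM in the 5 knockouts. Heterozygote 2 was the highest, the knockouts lay within a narrow band, and the ratio was 0.413. Of 21 other tested genes of ADP-ribosylation and NAD metabolism, 7 were lower and 1 higher, beside 8.64% and 10.2% of all genes. The higher count was 0 without heterozygote 1 or 5 or knockout 3 or 5, and the median log2 fold change was -0.09. Nampt, for the step from nicotinamide, had means of 76.8 ± 21.6 and 44.9 ± 4.94 CPM (log2 fold change -0.85, SE 0.172, adjusted p 0.00333, edgeR's quasi-likelihood test), and Macrod1, which removes ADP-ribose, was at -0.84.

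Pla2g5 (chr4:138799247-138863469, minus strand) encodes a secreted phospholipase A2. It stood at 71.6, 77.9, 99.5, 61.6 and 99.9 CPM in the 5 heterozygotes (1 to 5) and 38.8, 53.3, 39.5, 29.8 and 38.2 CPM in the 5 knockouts. Knockout 2 and heterozygote 4 were closest to each other, heterozygotes 3 and 5 were the highest, and the ratio was 0.486. Amino acid and sulfur breakdown was represented by 4 members. Prodh, the first enzyme of proline breakdown, had means of 15.2 ± 3.06 and 7.40 ± 0.473 CPM. Ccbl2 (RefSeq symbol Kyat3), a kynurenine aminotransferase, had 10.2 ± 1.85 and 4.91 ± 1.32 CPM, Fah, the last enzyme of tyrosine breakdown, 3.68 ± 0.412 and 1.79 ± 0.514 CPM, and Tst, the sulfurtransferase rhodanese, 4.94 ± 1.79 and 2.38 ± 0.219 CPM. Of 11 other genes on a list of this kind made afterwards, 5 were lower and 0 higher, beside 8.64% and 10.2% of all genes. Among the lower ones were Ethe1 at -0.75 and Got1 at -0.68.

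Egln3, an oxygen-dependent prolyl hydroxylase that acts on hypoxia-inducible factors, had means of 65.0 ± 7.65 and 30.5 ± 6.98 CPM and a ratio of 0.468. Of 10 other tested genes of oxygen sensing, on a list made afterwards, 2 were lower and 2 higher, beside 8.64% and 10.2% of all genes. The lower ones were the paralog Egln1 (log2 fold change -0.53, SE 0.113, adjusted p 0.00466, edgeR's quasi-likelihood test) and the factor gene Epas1 at -0.62. The higher ones were the factor gene Hif1a at 0.55 and Hif1an, and the higher count was 1 without knockout 2 or 5. Acot3, a peroxisomal acyl-CoA thioesterase, had means of 7.12 ± 2.02 and 3.03 ± 1.53 CPM, with knockout 1 the lowest and knockout 5 the highest of its group. Of 19 other tested genes of peroxisomal lipid metabolism, on a list made afterwards, 7 were lower and 0 higher, beside 8.64% and 10.2% of all genes. Pex11a at -0.85 and Crat at -0.69 were among the lower ones. The other enzymes were Pm20d1, which joins fatty acids to amino acids (16.7 ± 3.38 and 7.31 ± 1.55 CPM), Galm, which converts the 2 forms of galactose and glucose (19.4 ± 2.68 and 9.34 ± 0.460 CPM), and the lysosomal peptidase gene Ctsc (21.3 ± 4.15 and 10.5 ± 2.23 CPM). Gstt1, a glutathione transferase, Car2, a carbonic anhydrase, and Naaa, which degrades fatty acid ethanolamides, were at heterozygote means of 3.75, 5.20 and 6.07 CPM and knockout means of 1.62, 2.56 and 3.02 CPM.

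**Figure D4:**
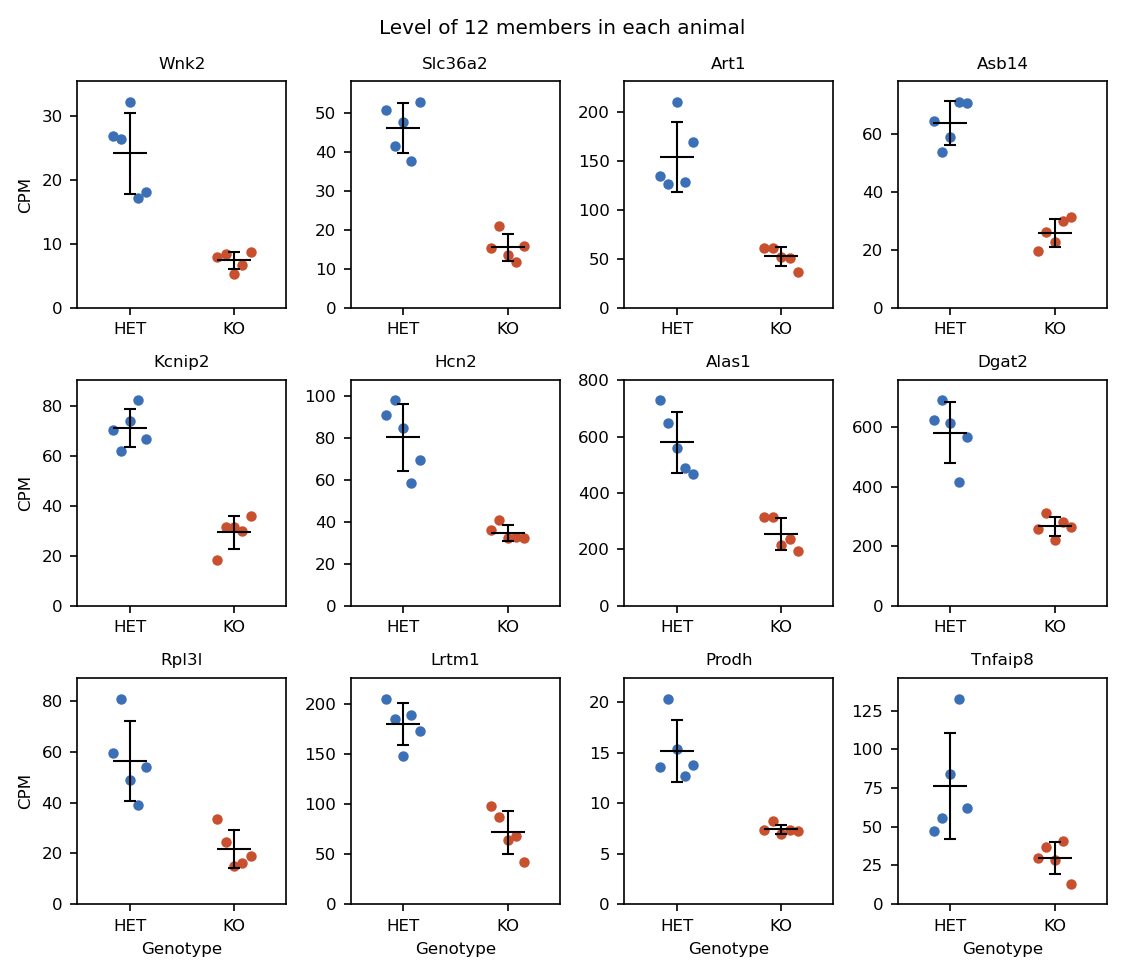
Level (y axis, CPM, from 0) of 12 members in each animal by genotype (x axis, 5 heterozygotes in blue, 5 knockouts in orange), with bars for mean and SD. In all 12 panels every knockout point lies below every heterozygote point, which the rule required. The gap is wide for Kcnip2 and Art1 and narrow for Rpl3l and Tnfaip8.

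Signalling members included kinases, receptors, ligands and feedback inhibitors. Wnk2 (chr13:49036302-49148014, minus strand) encodes a kinase of the family that switches on SPAK and OSR1, which in turn set the activity of cation-chloride cotransporters. It stood at 26.9, 26.4, 32.2, 17.1 and 18.1 CPM in the 5 heterozygotes (1 to 5) and 7.89, 8.34, 5.30, 6.69 and 8.64 CPM in the 5 knockouts. Heterozygotes 4 and 5 were lower than the other 3, and all knockouts lay far below them. The means were 24.1 ± 6.36 and 7.37 ± 1.37 CPM, a ratio of 0.305. Of the paralogs, Wnk4 was lower (log2 fold change -1.08, SE 0.193, adjusted p 0.00141, edgeR's quasi-likelihood test), and Wnk1 had means of 87.9 ± 13.5 and 113 ± 21.4 CPM and was not called (log2 fold change 0.28, SE 0.133, adjusted p 0.160). Stk39, the gene of SPAK, was lower as well, with means of 141 ± 24.9 and 86.0 ± 15.3 CPM (log2 fold change -0.79, SE 0.135, adjusted p 0.00104, edgeR). Of 13 tested genes of this pathway apart from Wnk2, 3 were lower (Wnk4, Stk39 and Cab39l) and 3 higher, beside 8.64% and 10.2% of all genes. The cotransporter genes Slc12a4 and Slc12a7 were among the higher ones, and the median log2 fold change of the 13 was 0.10.

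Socs3 (chr11:117966087-117969366, minus strand), the feedback inhibitor of cytokine receptors that signal through JAK and STAT proteins, stood at 2.89, 3.70, 4.08, 3.52 and 3.01 CPM in the 5 heterozygotes (1 to 5) and 1.13, 0.944, 1.30, 0.648 and 1.18 CPM in the 5 knockouts. The heterozygotes lay close together, knockout 4 was lowest, and the ratio was 0.302. Other members of this circuit were Prlr, the prolactin receptor, with means of 3.09 ± 1.19 and 1.32 ± 0.286 CPM, and Lrg1. Of 16 other tested genes of cytokine receptor and SOCS signalling, on a list made afterwards, 2 were lower (Cish at -0.85 and Lifr at -0.63) and 3 higher. The shares over all genes were 8.64% lower and 10.2% higher. Socs7 and Socs6, which share the symbol stem, were among the higher ones (log2 fold change 0.69, SE 0.138, adjusted p 0.00328 and log2 fold change 0.48, SE 0.118, adjusted p 0.0106 in edgeR's quasi-likelihood test). On a list of immediate early genes that answer to cell dissociation, 6 of 25 tested genes other than Socs3 were lower, Klf4 (-0.97) and Klf2 (-0.82) most, and 2 were higher. Without heterozygote 3 or knockout 1, 2 or 3, Cish alone was lower among the cytokine genes. Of the immediate early genes, 3 were lower without knockout 2, 4 were higher without heterozygote 3 and 1 without any of the other 9 animals.

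Lrg1 (chr17:56119678-56121946, minus strand) encodes a secreted leucine-rich glycoprotein. It stood at 31.7, 48.2, 31.5, 28.0 and 28.6 CPM in the 5 heterozygotes (1 to 5) and 10.7, 12.5, 10.0, 13.5 and 12.1 CPM in the 5 knockouts. Heterozygote 2 was well above the other heterozygotes, the knockouts were close together, and the ratio was 0.350. Tnfaip8 encodes a cytosolic protein induced by tumour necrosis factor. It stood at 47.1, 55.4, 83.8, 133 and 62.3 CPM in the 5 heterozygotes (1 to 5) and 29.8, 37.0, 28.7, 40.6 and 13.3 CPM in the 5 knockouts. Heterozygote 4 was the highest by far and knockout 5 the lowest, so the ratio of 0.392 comes with wide spread in both groups (means 76.3 ± 34.4 and 29.9 ± 10.5 CPM). Ephb1 (chr9:101922128-102354693, minus strand), a receptor for ephrin-B ligands, stood at 4.95, 13.5, 7.42, 4.54 and 10.4 CPM in the 5 heterozygotes (1 to 5) and 3.17, 3.54, 3.20, 4.32 and 4.08 CPM in the 5 knockouts. Heterozygotes 1 and 4 nearly touched the highest knockout, and the ratio was 0.449. Of 42 other axon guidance genes tested, without Rtn4r, 1 was lower (Rtn4rl1) and 8 were higher, beside 8.64% and 10.2% of all genes. The lower count was 3 without heterozygote 4 and 0 without heterozygote 1, 2 or 5 or knockout 1, 2 or 3.

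Xaf1 (chr11:72301629-72313733, plus strand), an interferon-induced gene that antagonises the apoptosis inhibitor XIAP, stood at 2.46, 2.66, 19.8, 5.22 and 2.72 CPM in the 5 heterozygotes (1 to 5) and 1.74, 1.57, 1.30, 1.62 and 2.31 CPM in the 5 knockouts. Heterozygote 3 alone was high, and the other heterozygotes lay just above the knockouts. The mean ratio was 0.260 with that animal, a fitted log2 fold change of -1.96, and the fitted value was -0.97 without it, when Xaf1 no longer met the rule. Of 18 other tested interferon genes 3 were lower, Usp18, Gbp2 and Rsad2, beside 8.64% of all genes. The count was 1 without heterozygote 3. Without other single animals it ran from 0 to 10.

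Other signalling members were Cdk6, a cyclin-dependent kinase of the step into DNA synthesis (13.3 ± 2.35 and 5.72 ± 1.79 CPM), and Wnt5a, a secreted Wnt ligand (8.44 ± 1.57 and 3.87 ± 0.670 CPM). Arl4d, a small GTPase, had means of 13.5 ± 3.27 and 6.55 ± 1.21 CPM, and Tbc1d10c, a GTPase-activating protein of leukocytes, 5.21 ± 1.22 and 2.45 ± 0.446 CPM. 

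Among muscle, cytoskeleton and cilium genes, Lrtm1 (chr14:29018208-29033642, plus strand) encodes a leucine-rich repeat membrane protein of striated muscle and lies within Cacna2d3, on the other strand. It stood at 206, 185, 149, 189 and 174 CPM in the 5 heterozygotes (1 to 5) and 97.7, 86.9, 63.7, 67.9 and 42.5 CPM in the 5 knockouts. Heterozygote 3 was the lowest of its group and knockout 5 the lowest of the other, with the groups well apart. The means were 180.4 ± 21.2 and 71.7 ± 21.4 CPM, a ratio of 0.398. Asb14 (chr14:26894604-26915257, plus strand) encodes an ankyrin repeat protein with a SOCS box, by which such proteins bring substrates to cullin ubiquitin ligases. It stood at 64.7, 53.9, 59.1, 71.2 and 70.9 CPM in the 5 heterozygotes (1 to 5) and 19.5, 26.1, 22.6, 29.9 and 31.4 CPM in the 5 knockouts. Heterozygote 2 was the lowest of its group and knockout 5 the highest of the other, and the ratio was 0.405. Of 14 other tested genes of the family, listed afterwards, 2 were lower and 0 higher (1 without heterozygote 2), beside 8.64% and 10.2% of all genes. The lower ones were Asb10 with means of 92.2 ± 16.4 and 47.3 ± 5.37 CPM (log2 fold change -1.05, SE 0.139, adjusted p 0.000141, edgeR's quasi-likelihood test) and Asb15 at -0.89.

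Microtubule genes followed. Tppp3 (chr8:105467492-105471422, minus strand), which promotes the assembly of tubulin, stood at 16.1, 23.0, 19.2, 20.6 and 14.8 CPM in the 5 heterozygotes (1 to 5) and 4.81, 5.82, 6.504, 5.61 and 11.2 CPM in the 5 knockouts. Knockout 5 was well above the other knockouts and below every heterozygote, and the ratio was 0.362. Dpysl4 (chr7:139086001-139101791, plus strand), of the collapsin response mediator family that binds tubulin, stood at 12.996, 9.49, 12.9, 8.62 and 10.1 CPM in the 5 heterozygotes (1 to 5) and 4.81, 5.51, 1.90, 4.53 and 4.74 CPM in the 5 knockouts. Knockout 3 was far below the other knockouts, and the ratio was 0.398. Its paralog Dpysl3 went the opposite way, with means of 111 ± 20.5 and 523 ± 30.5 CPM (log2 fold change 2.16, SE 0.125, adjusted p 2.57e-07, edgeR's quasi-likelihood test). Dpysl2 was not called (log2 fold change 0.36, SE 0.139, adjusted p 0.0835). 2310010M20Rik (chr16:32271609-32274779, plus strand), in RefSeq Smco1, a membrane protein with a coiled coil, stood at 17.1, 15.5, 15.1, 13.4 and 14.8 CPM in the 5 heterozygotes (1 to 5) and 7.78, 5.51, 3.90, 7.45 and 3.14 CPM in the 5 knockouts. The heterozygotes lay close together, knockouts 3 and 5 were low, and the ratio was 0.366.

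Cenpf (chr1:189640614-189688086, minus strand), a kinetochore protein of dividing cells, stood at 17.9, 14.8, 22.1, 27.1 and 22.1 CPM in the 5 heterozygotes (1 to 5) and 6.25, 9.05, 10.3, 9.50 and 11.5 CPM in the 5 knockouts. Heterozygote 2 was the lowest of its group and knockout 5 the highest of the other, and the ratio was 0.448. Of 40 other cell cycle genes tested, 3 were lower and 0 higher, beside 8.64% and 10.2% of all genes. The lower count is thus near the share over all genes. The median log2 fold change of the 40 was -0.44, and Ccne1 was the lowest of the 3 (log2 fold change -0.87, SE 0.233, adjusted p 0.0175, edgeR's quasi-likelihood test). The count was 5 without heterozygote 3, 8 without knockout 5, 7 in DESeq2 and 7 with a replicate block. Tmod4, which caps actin filaments at their pointed end in skeletal muscle, had means of 13.7 ± 3.74 and 6.502 ± 0.892 CPM. Of the cilium genes, Rp1 had means of 3.34 ± 0.329 and 0.472 ± 0.267 CPM, with 2 to 11 counts per knockout sample, and 6030429G01Rik (RefSeq Dnaaf3), an assembly factor of ciliary dynein, had 5.13 ± 1.95 and 2.48 ± 0.548 CPM.

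Transcription, splicing and the ribosome gave 4 members. Rpl3l (chr17:24727829-24736149, plus strand) encodes the striated muscle paralog of the ribosomal protein uL3. It stood at 59.5, 81.1, 48.8, 39.0 and 54.2 CPM in the 5 heterozygotes (1 to 5) and 33.7, 24.6, 15.2, 16.4 and 18.8 CPM in the 5 knockouts. Heterozygote 2 was the highest, and knockout 1 came close to heterozygote 4. The means were 56.5 ± 15.7 and 21.7 ± 7.59 CPM, a ratio of 0.384. Grhl2, an epithelial transcription factor, had means of 4.64 ± 1.21 and 1.35 ± 0.714 CPM, Srrm4, a splicing factor of neurons, 9.12 ± 3.89 and 2.95 ± 1.53 CPM, and Cited1 8.74 ± 2.62 and 4.36 ± 1.09 CPM. Exons of Srrm4 share 68 bases with 2410137F16Rik on the other strand. Of 32 tested nuclear receptor genes, without Rxrg, none was a member. Rxrg itself met the limits of the rule and is left out by name. It is counted in the 0.629% of the genes at 3 CPM or more that met the limits. Of these 32 genes, 2 were lower and 3 higher, beside 8.64% and 10.2% of all genes. The lower count was 6 without heterozygote 4, and the higher count 1 without heterozygote 2, 3, 4 or 5 or knockout 1, 2, 3 or 4.

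The 9 members without a described role had ratios of 0.299 to 0.486 and heterozygote means of 3.01 to 33.6 CPM. The highest CPM were those of Fam69b (RefSeq Dipk1b) with means of 33.6 ± 10.6 and 16.3 ± 4.78 CPM and A530016L24Rik with 30.5 ± 6.96 and 14.8 ± 1.52 CPM. Fam84a (RefSeq Lratd1) had the lowest ratio, with means of 3.43 ± 0.987 and 1.03 ± 0.162 CPM. Tlcd2, Pdzrn4, 5430405G05Rik (RefSeq Tmem74b) and Lrrc4b went from 14.5 to 6.96, 5.80 to 2.16, 4.91 to 2.30 and 4.58 to 1.96 CPM. Gm16119 (RefSeq Uckl1os) and AI507597 went from 5.33 to 2.01 and 3.01 to 1.38 CPM and share exon sequence with genes on the other strand. These were 118 bases with Uckl1 and 109 with Znf512b for the first, and 395 bases with Tmem82 for the second, and the counting used no strand, so these counts are uncertain.

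**Figure D5:**
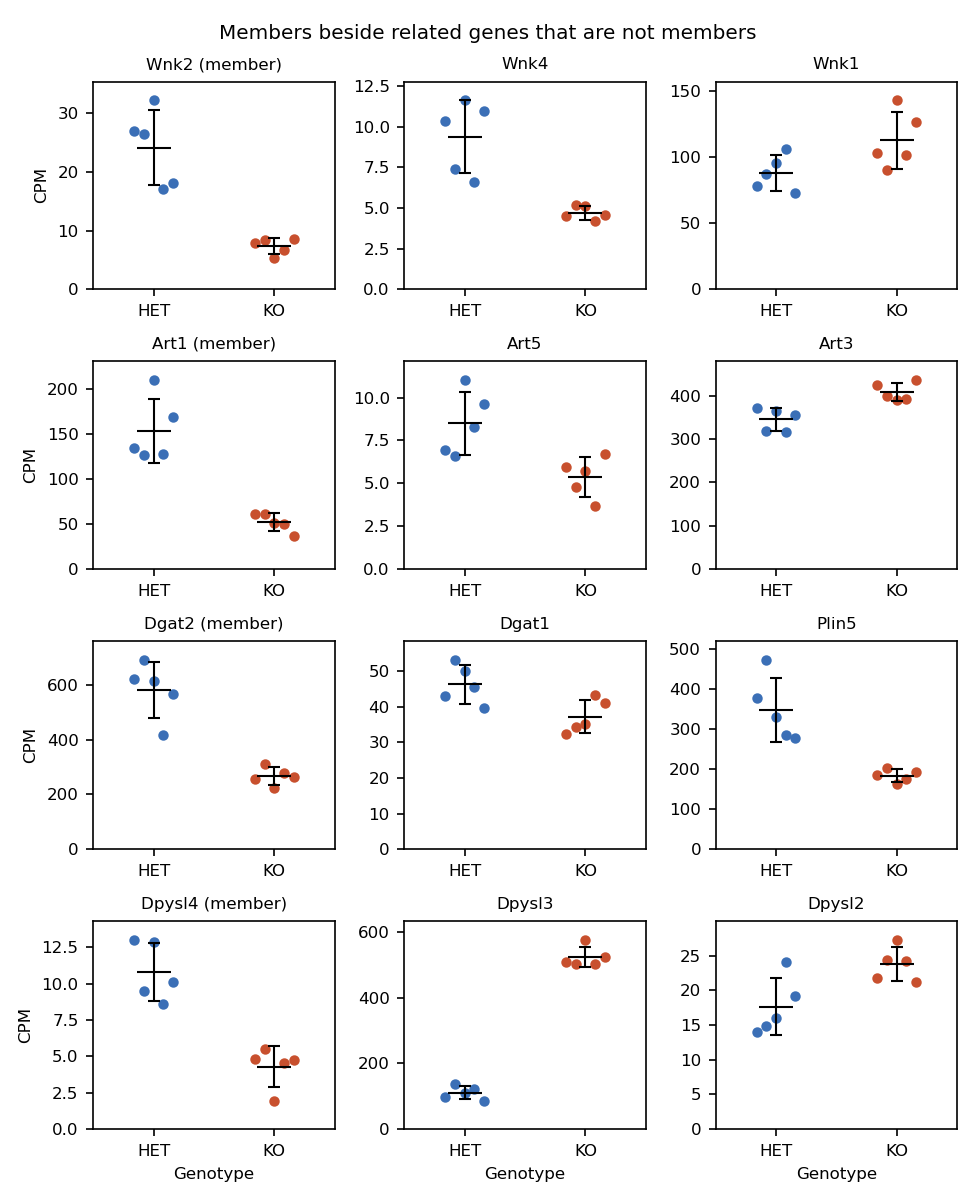
Level (y axis, CPM, from 0) of 4 members and of related genes that are not members, in each animal by genotype (x axis, heterozygotes blue, knockouts orange), with bars for mean and SD over 5 animals. Each row holds 1 member and 2 related genes, Plin5 being a lipid droplet gene set beside Dgat2 and Dgat1. Dpysl3 rises from 111 to 523 CPM where Dpysl4 is lower, and Wnk1 and Art3 are not called.

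Over all 9 families that share a symbol stem with a member given in full, 22 other genes were tested, of which 3 were lower (Wnk4, Art5 and Dgat1), 3 higher (Dpysl3, Socs6 and Socs7) and 16 not called. The lower share is 3 of 22, beside 8.64% of all genes tested. Art3 had means of 345 ± 25.6 and 408 ± 20.5 CPM and was not called in edgeR's quasi-likelihood test (log2 fold change 0.16, SE 0.0888, adjusted p 0.235). Under scaling by library totals alone it was called higher.

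In the genome, the members were scattered. No 2 of them lay within 100 kb of each other, genes left out by name aside. Rtn4r, which met the limits of the rule and is left out by name, lies 38516 bases from the member Prodh. Chromosomes 7, 11 and 15 held 7, 6 and 6 members, which is 0.920%, 0.675% and 1.45% of their genes at 3 CPM or more. Chromosome 6 held 0 members among 503 such genes, genes left out by name aside. Of all such genes, 0.629% met the rule, genes left out by name included. The exonic length had a median of 2431 bases, beside 2977.5 over the expressed genes. Some direct neighbours were lower as well. Among the 2 nearest genes of each member, 49 lay within 5 kb and 28 of these were tested, with 12 lower and 0 higher in edgeR's quasi-likelihood test, beside 8.64% and 10.2% of all genes. Among the 12, Uckl1 and Tmem82 share exon bases with the members Gm16119 and AI507597. The counting used no strand, so their counts are uncertain. Lrg1 lies 2130 bases from Plin5 on the same strand. Art5 lies 1514 bases from Art1 on the other strand (log2 fold change -0.73, SE 0.202, adjusted p 0.0217, edgeR) and lost its call without heterozygote 3 or knockout 2. Rpl3l lies 493 bases from Sepx1 (log2 fold change -0.74, SE 0.186, adjusted p 0.0122) and 3441 bases from the mitochondrial complex I gene Ndufb10 (log2 fold change -0.73, SE 0.102, adjusted p 0.000216). Hcn2 lies 4655 bases from Bsg, for the chaperone of lactate transporters, which had means of 1935 ± 237 and 1135 ± 47.3 CPM (log2 fold change -0.85, SE 0.0959, adjusted p 3.62e-05, edgeR). Tst lies 853 bases from its paralog Mpst (log2 fold change -1.17, SE 0.321, adjusted p 0.0202, edgeR), whose call was lost without heterozygote 1. 6030429G01Rik lies 514 bases from the troponin gene Tnni3 on the same strand (log2 fold change -0.53, SE 0.0967, adjusted p 0.00165, edgeR), which had means of 6603 ± 769 and 4845 ± 313 CPM.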

How the data were processed

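Sorted cardiomyocytes of 5 knockout and 5 heterozygote mice were compared. The deposited values are whole-number read counts per gene, without normalisation. The counting tool was featureCounts 1.5.1 per the file headers, which list 4 threads, no counting option, and UCSC gene models of mm10 (archive of 2012). Its defaults ignore strand and discard multi-mapping reads and reads shared by genes, so genes with close copies or overlapping exons can be undercounted. The submitters' processing notes name STAR 2.5.3a and Subread 1.5.2, while the file headers list alignments under the standard file name of a different program, so the aligner is uncertain. Of 14 count columns, 10 match samples by name, and the other 4 were not used.

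Member levels are counts divided by the column total, in CPM (Python 3.11.15, pandas 2.3.3). Intervals and spreads cover these animals only, and precision falls with abundance: 3 counts equal 0.119 to 0.371 CPM. All 59 members were among the 11870 genes kept by filterByExpr. For genes that are not members, groups were compared with edgeR 4.0.16 (R 4.3.3; TMM factors, quasi-likelihood F test, no covariate, Benjamini-Hochberg adjustment over the 11870 genes, called at an adjusted p below 0.05). On simulated counts at these depths the procedure called 75.8% of 2-fold and 99.0% of 4-fold changes, and 3.91% of its calls were unchanged genes. The simulation drew counts with the spread that edgeR had fitted and held 197 changed genes among 11753 tested. In the data 18.9% of genes were called, so these rates need not hold for the data.

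The members, roles and lists were chosen with earlier results of these data known. Each sample's value is given for the 12 members of lowest ratio with a heterozygote mean of at least 10 CPM, the 8 of highest heterozygote CPM, and every member on a list or marker list not made afterwards. Lists described as made afterwards were drawn up once the members had been seen. Related genes share a member's symbol stem. Alternatives were other scalings, filters and limits, a replicate block, DESeq2 1.42.0 and leaving out each animal. Promoters are those of RefSeq, and 17 members without one were not searched. No sequence is shown for Tnfaip8, and 1 member is counted but its values are not reported here.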

Additional observations from a re-analysis of the deposited data

Results flagged for a closer look

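Groups of 5 animals were screened for a single value set apart from the rest by a gap larger than 0.710 of the group's whole range. Of 52 groups screened (the members given in full and 3 totals or sums per genotype), 5 stood out, and chance alone gives about 1 in 20, here 2.6. Xaf1, the interferon-induced gene, was at 19.8 CPM in heterozygote 3, far above the other heterozygotes. Lrg1, the secreted glycoprotein gene, was at 48.2 CPM in heterozygote 2, above the other 4. The tubulin assembly gene Tppp3 was at 11.2 CPM in knockout 5, above the other knockouts and below every heterozygote. Dpysl4 was at 1.90 CPM in knockout 3, below the other knockouts. The total count of heterozygote 1 was 25237696, and the next heterozygote had 10309615.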

How the results depend on the processing

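The rule gave 59 genes as set, 84 with TMM, 86 with RLE and 89 with upper-quartile scaling, each including all 59. These factors were mostly below 1 in heterozygotes and mostly above 1 in knockouts. All these scalings thus lowered the ratio for most genes, and keeping the 59 was nearly set in advance. A minimum of 10 CPM gave 32, a knockout mean of at most 0.333 of the heterozygote mean 10, groups allowed to overlap 131, a minimum of 1 CPM 78, and medians in place of means 58. Leaving out single animals gave 54 to 77 genes. Of all 11870 genes tested, edgeR called 2241 (1216 higher, 1025 lower), and 1699 to 2258 with single animals left out. With library totals alone it called 2444 (1684 higher, 760 lower), which shifted the median log2 fold change of all genes to 0.08, and with upper-quartile scaling 2245 (1083 higher, 1162 lower). DESeq2 called 2625. The replicate block gave 2182 calls, but the correlation of same-numbered animals was above 0.1 for 3 of 5 numbers only (-0.0604 to 0.185), so the numbers were not taken as pairs, and only numbers 4 and 5 correlated best with their own number. The block moved the lower count of cell cycle genes from 3 to 7 and of connexins from 1 to 2, and the higher count of immediate early genes from 2 to 4, of interferon genes from 0 to 2 and of nuclear receptors from 3 to 1. Among the members given in full, fitted log2 fold changes ran from -3.02 to -0.95 over all settings. Only that of Xaf1 moved by more than the replicate spread, from -1.96 to -0.97 without heterozygote 3. Of 63 other named genes, 45 were called, or not called, in the same direction in all settings. Hcn4 changed sign, from 0.11 to -0.091 without heterozygote 4 and -0.070 without knockout 4, with 0.38 as the highest value when 1 animal was left out, none of them called, and the cause was not tested. Depth limits the members under 5 CPM most, where knockout samples hold a handful of reads.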

Other observations

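Several gene groups supplied few members or none. Only 0.629% of the genes at 3 CPM or more met the rule, genes left out by name included. Having none is thus usual for lists of this size that hold no such gene. In edgeR's quasi-likelihood test 8.64% of all genes were called lower and 10.2% higher. Of 35 tested genes of ventricular maturation and excitation-contraction coupling other than Scn4a and Scn4b, 9 were lower and 4 higher in edgeR's quasi-likelihood test, with a median log2 fold change of -0.11. Those lower included the muscle creatine kinase gene Ckm, the calcium pump gene Atp2a2 and Cacna1s, the calcium channel gene just under the level limit of the rule. The groups of Cacna1s did not overlap, and its knockout mean was 0.419 of the heterozygote mean. Of 38 tested targets of serum response factor and its cofactors, without Acta2, none was a member. Acta2 met the limits of the rule and is left out by name. Of the 38 genes, 6 were lower and 13 higher, with Nppa, Ankrd1 and Csrp3 among the higher ones. Without knockout 1 or knockout 2 the lower count was 3. Of 18 circadian clock genes none was a member, 1 was lower and 2 higher (Per2 and Clock), and the lower count was 0 without heterozygote 5 or knockout 2. Of 5 tested connexin genes other than Gja4, 1 was lower, Gja3, a connexin best known from the lens, at -0.85 on the log2 scale (SE 0.185, adjusted p 0.00558 in edgeR). Without heterozygote 2 or knockout 5, 2 were lower.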
